A study of Mus musculus with 122 samples.

Results

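Chromatin domains of the CTCF line were taken from the 8 Hi-C domain lists of its 4 conditions, 1 list per condition from each of 2 domain callers (HiCratio and Crane), out of 24 lists for the whole series. Every domain in these lists is included, which gives 23796 of the 70254 domains deposited for all lines. The cells were E14Tg2a mouse embryonic stem cells of the 129/Ola strain (XY) in which both Ctcf alleles carry an auxin-inducible degron and eGFP, Tir1 is expressed from Rosa26, and a Dox-inducible Flag-CTCF-mRuby2 transgene is homozygous at the Tigre locus. All 4 conditions share these alleles, including the untreated one, and the lines are individual clones. The other lines used for comparison have the same parent cells, with a different Dox-inducible transgene at Tigre. It encodes CTCFL, the testis-specific paralog of CTCF, or 1 of 2 chimeras. CLC has the CTCF termini and the CTCFL zinc fingers, and LCL the reverse. U is untreated, I received auxin (IAA) at 500 µM, which degrades the endogenous CTCF protein, D received Dox at 1 µg/ml, which induces the transgene beside endogenous CTCF, and ID received both, so that transgenic CTCF stands in for the endogenous protein. The sample labels give a time point of 24 h, while the treatment protocol gives 4 days for Hi-C and 2 days for RNA and ChIP.

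A topologically associating domain is a stretch of chromosome whose loci contact each other more often than they contact loci beyond its ends. Cohesin, whose ring includes RAD21, is understood to extrude loops of DNA until it meets CTCF, a zinc-finger protein that binds a directional motif, and loops form preferentially between motifs that point towards each other. Domain ends are therefore often occupied by CTCF and cohesin. When CTCF is removed the neighbouring domains contact each other more, and a domain caller then tends to join them.

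The lists are in bins of 40 kb on GRCm38/mm10, chromosomes 1 to 19 and X. HiCratio lists leave 40 to 80 kb between neighbouring domains, so each gap is a boundary, whereas Crane leaves broader gaps. With 1 list per condition and caller, shares of domains have no replicate check, and the 95% intervals given (exact Clopper-Pearson) cover counting error only. The lists hold no read counts, so Hi-C depth is not known from them, and the study's quality plots show fewer accepted read pairs for CTCF U and I than for CTCF D and ID. The part of depth in the values was not tested. HiCratio values are given unless Crane is named.

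Named merges show at sequence level what the domain lists hold. They are the 5 I domains that took in the most U domains that all came back in ID, in order of the number of U domains held and then of size: chr13:3560001-6520000 (2.96 Mb, 4 U domains), chr10:88840001-91200000 (2.36 Mb, 4), chrX:60040001-68680000 (8.64 Mb, 3), chr7:68400001-73440000 (5.04 Mb, 3) and chr4:3960001-8640000 (4.68 Mb, 3). Between their U domains lie 12 boundaries, of which 10 had a FLAG CTCF ID site within 40 kb of the middle and 9 a motif in it. The sequences below, which show 8 of these 9 while the other is not reported here, are the best motif match of the strongest such site, read from GRCm38 on the motif's forward strand, 5′ to 3′, with the 11 positions that hold at least 1 bit of information in the matrix of all sites in capitals.
chr13:4001889-4001907 (minus strand, intergenic, nearest gene Akr1c14): gtCCACcAGAGGGCgcact
chr10:89327093-89327111 (plus strand, intron of Ano4): atCCACaAGAGGGCgcccc
chr10:89824110-89824128 (minus strand, intergenic, nearest gene Uhrf1bp1l): ctCCAGtTGGTGGTgctgt
chr10:90690336-90690354 (minus strand, intron of Anks1b): tgCCACcAGGTGGCggtag
chrX:61134771-61134789 (minus strand, exon of the lincRNA C230004F18Rik): ggTCACtAGGTGGCaaatg
chr7:72362898-72362916 (minus strand, intergenic, nearest gene Mctp2): agCCTGcAGGTGGCagtgc
chr4:4729618-4729636 (plus strand, exon of the snoRNA Gm26436): cgTCAGtAGGTGGCagagg
chr4:6513173-6513191 (plus strand, intergenic, nearest gene Nsmaf): gaCCAGcAGATGTCcctct
All 8 also had a FLAG CTCF site in D within 200 bp of them. Their match scores differ, the highest being 23.6 bits at chr10:90690336-90690354. The lowest are 9.35 at chr4:6513173-6513191 and 7.71 at chr10:89824110-89824128, the latter close to the 7.39 bits required of a match. The boundary at chr13:4600001-4640000 had 1 weak site without a motif match, and those at chr13:5400001-5440000 and chr7:70360001-70400000 had no site, although they came back in ID like the others.

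CTCF depletion left fewer and larger domains. HiCratio listed 3041 domains in U and 3038 in D, but 2496 in I and 2889 in ID, so that ID lay between I and both conditions with endogenous CTCF. Crane listed 3103 for U, 3222 for D, 2894 for I and 3113 for ID, and here ID was above U. By HiCratio the median domain measured 600 kb in U and ID, 560 kb in D and 640 kb in I. By Crane it was 480 kb in U and ID, 440 kb in D and 520 kb in I. Domains of at least 2 Mb made up 6.31% of the U list, 6.65% of the D list, 11.7% of the I list and 7.55% of the ID list, so the upper tail moved more than the median.

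Lists of the other lines, which carry the same degron, allowed a test across lists. In those lines D and ID induce CTCFL, CLC or LCL in place of transgenic CTCF. In the 6 lists with endogenous CTCF (CTCF U and D, CTCFL U and D, and D of CLC and LCL, chimeras of CTCF and its testis-specific paralog CTCFL) HiCratio gave 2976 ± 59.8 domains (SD, range 2880 to 3041). In the 5 depleted lists without full-length transgenic CTCF (CTCF I, CTCFL I and ID, CLC ID and LCL ID) it gave 2543 ± 40.9 (range 2496 to 2605). The groups did not overlap, and the difference of 433.5 domains had p = 0.00433 in a two-sided exact permutation test, the smallest value that this number of lists allows. The CTCF ID list, with 2889 domains, fell inside the range of the lists with endogenous CTCF. By Crane the numbers were 3135 ± 62.4 and 2974 ± 73.2, also without overlap (exact permutation p = 0.00433). Median sizes by HiCratio were 640 kb in all 5 depleted lists and 560 or 600 kb in the others (difference −46.7 kb, exact permutation p = 0.00433), whereas by Crane the groups overlapped at 480 kb (difference −44.0 kb, exact permutation p = 0.0433). Within each line the HiCratio number fell with auxin, from 3041 to 2496 (U to I) and from 3038 to 2889 (D to ID) in the CTCF line, from 2952 to 2556 and from 2971 to 2524 in the CTCFL line, and from D to ID from 2976 to 2605 in CLC and from 2880 to 2533 in LCL. By Crane it fell in each of these pairs as well, by the fewest between CTCFL D and ID (3063 to 2965). Lists of 1 line share its cells, so these p-values measure the spread between lists only.

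**Figure D1:**
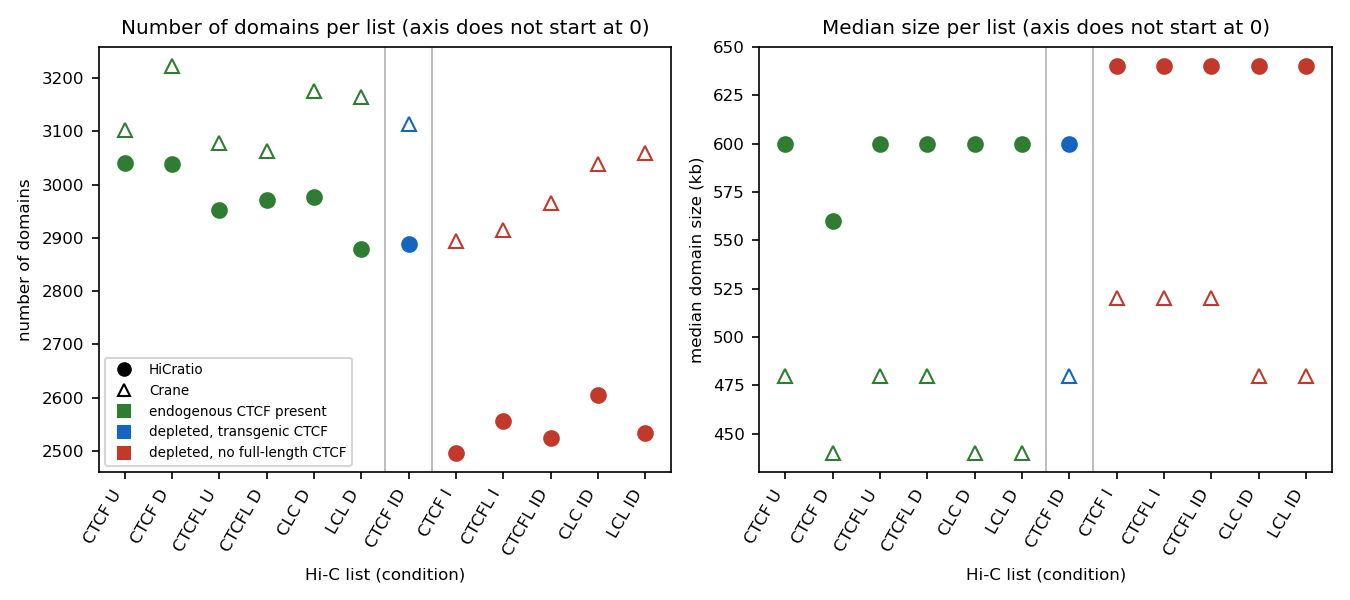
Number of domains and median domain size (kb) in each deposited list, by caller, for lists with endogenous CTCF, depleted lists without full-length CTCF, and CTCF ID. By HiCratio the depleted lists hold 2496 to 2605 domains and the lists with endogenous CTCF 2880 to 3041, with CTCF ID at 2889.

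Which domains merged was read by following each U domain into the other lists. A domain was kept when both ends lay within 1 bin of the ends of a domain there, merged when at least 80% of it lay in 1 domain that held at least 80% of another U domain too, split when several domains took its place, uncovered when under 50% of it lay in any domain, and otherwise shifted. In I, 1020 of 3041 U domains were merged (33.5%, interval 31.9 to 35.3) and 940 were kept (30.9%). A further 972 were shifted and 109 were split. In D, where endogenous CTCF was present, 333 U domains were merged (10.95%) and 2119 were kept (69.7%), which gives the difference between these lists without depletion. It is not list turnover alone, since D also holds the induced transgene and the paper reports stronger domains there. In ID 572 were merged (18.8%) and 1714 were kept (56.4%). The merged share was thus highest in I and lowest in D, with ID between them.

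The other lines gave the same order from the same U list. Merged shares were 14.01% in CTCFL U, 14.3% in CTCFL D, 15.0% in CLC D and 18.6% in LCL D, against 32.03% in CTCFL I, 34.96% in CTCFL ID, 30.3% in CLC ID and 33.2% in LCL ID. The share in CTCF ID was 18.8%, close to the highest of the lists with endogenous CTCF and below every other depleted list. These shares all start from the CTCF U list and are not independent of each other. With CTCFL U as the starting list, 29.8% of 2952 domains were merged in CTCFL I and 9.55% in CTCFL D. Crane gave lower shares in the same order, with 378 of 3103 U domains merged in I (12.2%), 227 in ID (7.32%) and 113 in D (3.64%), while 782 were kept in I (25.2%), 1692 in ID (54.5%) and 2193 in D (70.7%).

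**Figure D2:**
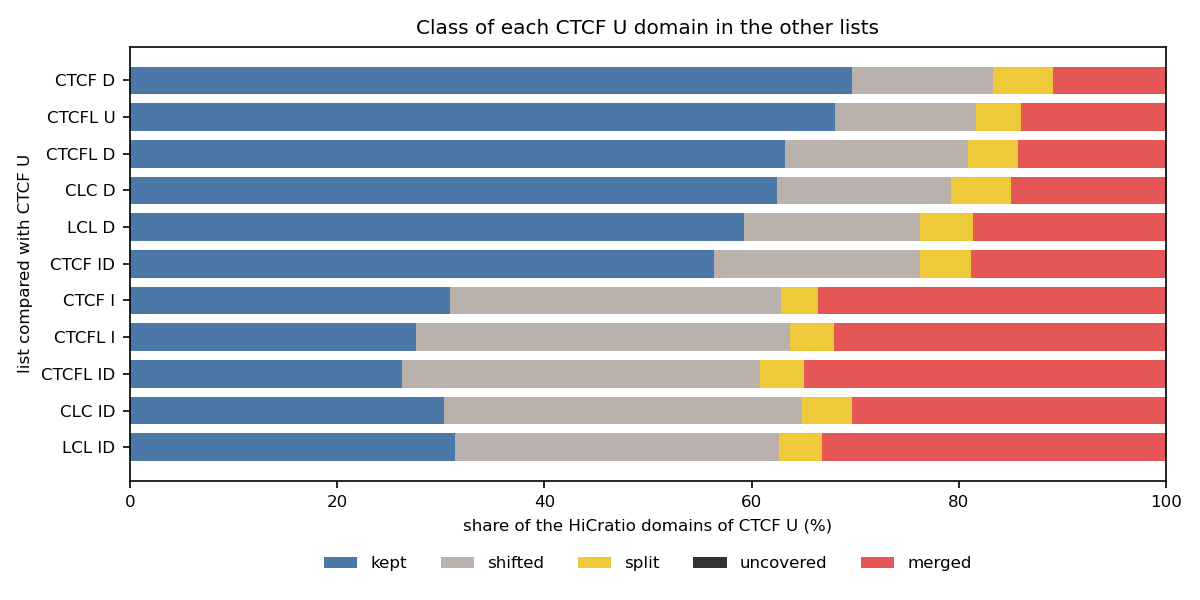
Share of the HiCratio domains of CTCF U (%) that were kept, shifted, split, uncovered or merged in each other HiCratio list, 1 stacked bar per list. The merged share is 33.5% in CTCF I, 10.95% in CTCF D and 18.8% in CTCF ID.

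The 1020 merged domains lay in 416 I domains. Of these, 290 held 2 U domains, 84 held 3, 28 held 4 and 14 held 5 or more. They had a median size of 1.8 Mb, against 0.56 Mb for the other 2080 domains of the I list. The most U domains, 8, were held by chr8:61000001-68800000, where 4 of them were kept in ID and 5 in D. The longest I domain of this kind was chr14:84480001-99080000, which measured 14.6 Mb with 10 protein-coding start sites and held 6 U domains, of which 3 were kept in ID and all 6 in D. On the X chromosome, chrX:111400001-123640000 held 5 U domains over 12.24 Mb, and 0 of them were kept in ID although 3 were in D.

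Re-expression of CTCF gave back part of the merged domains. Of the 1020 U domains merged in I, 471 were kept in ID (46.2%, interval 43.1 to 49.3), 375 were merged again (36.8%), 148 were shifted and 26 were split. Lists with endogenous CTCF did not keep all of these domains either. Of the 1020, 687 were kept in D (67.4%), 58.4% in CTCFL U, 55.9% in CTCFL D, 55.4% in CLC D and 49.6% in LCL D. The share kept in ID lay below all 5 of these values, but its interval overlapped that of LCL D (46.5 to 52.7). It lay above those of the depleted lists without full-length CTCF, which kept 6.96% (CTCFL I), 8.43% (CTCFL ID), 11.96% (CLC ID) and 13.3% (LCL ID) of the same domains. Crane gave 151 of 378 kept in ID (39.9%), against 64.8% in D and 4.23% in CTCFL I.

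Domains that were stable between U and D came back more often than those that were not. Of the 687 merged in I and kept in D, 400 were kept in ID (58.2%, interval 54.4 to 61.9). Of the 181 that were merged in D as well, 26 were kept in ID (14.4%, interval 9.60 to 20.3) and 135 were merged there. Among the 416 merges, all the U domains held came back in 142, none in 145 and some in 129. Domains kept in I were kept in ID in 80.5% of cases, against 78.3% in D, with overlapping intervals (77.9 to 83.0 and 75.5 to 80.9).

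By HiCratio the merged share fell steadily with gene density. Protein-coding start sites (GENCODE) were counted per Mb of each U domain and the domains were divided at the quartiles. From the poorest to the densest quartile (up to 2.27, 2.31 to 6.25, 6.43 to 14.5 and at least 14.5 genes per Mb) the share merged in I fell from 45.2% through 39.1% and 28.97% to 20.4%, against 33.5% over all domains. The same quartiles had 22.2%, 11.7%, 4.76% and 4.34% merged in D, so gene-poor domains also turned over more between lists with endogenous CTCF. The excess of I over D was present in each quartile. In CTCFL I the shares were 41.8%, 38.1%, 27.4% and 20.5%. Domains with no coding start site at all (272) had nearly equal shares in I (35.7%), D (33.1%) and ID (29.8%). By Crane the share also fell, with 18.7%, 10.6%, 9.95% and 8.40% merged in I.

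By HiCratio size showed no steady order. U domains of 40 to 440 kb were merged in I in 35.2% of cases (982 domains), those of 480 to 600 kb in 33.5% (600), those of 640 to 920 kb in 27.4% (715) and those of 960 to 8560 kb in 37.2% (744). The D values were 11.5%, 8.50%, 8.39% and 14.7%. By Crane the share fell with size, from 20.7% in the smallest quartile (up to 280 kb) through 13.3% and 6.61% to 6.48% in the largest (from 720 kb), so the order with size depended on the caller. Size and gene density are related (Pearson's r = −0.24 and Spearman's coefficient = −0.31 over the 3041 domains, which share chromosomes and one list). From the poorest to the densest quartile the merged share still fell from 46.9% to 9.13% among domains over 600 kb and from 42.3% to 25.6% among those up to 600 kb.

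By HiCratio return in ID fell from each size quartile to the next, while by Crane it was lower in the larger quartiles without a steady order. The HiCratio share of merged domains that were kept in ID was 52.3% in the smallest size quartile, 49.3% and 44.4% in the next ones and 37.5% (interval 31.8 to 43.5) in the largest, while the same domains were kept in D at 71.97%, 78.1%, 68.9% and 52.7%. By gene density it was 38.5% in the poorest quartile and 49.5%, 52.1% and 50.3% in the others, against 58.3%, 65.7%, 78.5% and 76.1% in D. By HiCratio the largest and the gene-poorest quartile had the lowest shares in D as well as in ID. By Crane, 41.3%, 46.9%, 25.6% and 32% of merged domains were kept in ID from the smallest to the largest quartile.

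**Figure D3:**
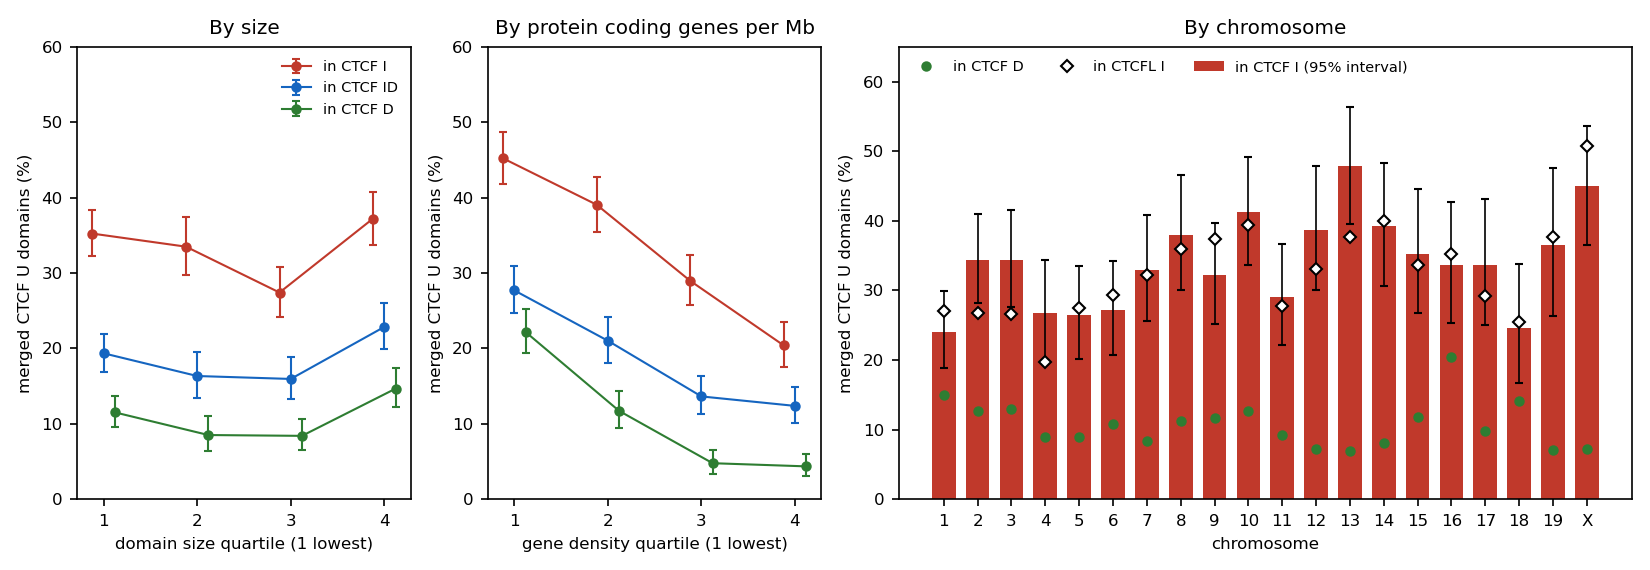
Share of HiCratio domains of CTCF U that were merged (%), by size quartile and gene density quartile in CTCF I, ID and D (points, with 95% intervals for counting error), and by chromosome in CTCF I (bars, with the same intervals), CTCF D and CTCFL I (points). The share in I falls from 45.2% in the gene-poorest to 20.4% in the densest quartile and ranges from 24.1% on chromosome 1 to 47.9% on chromosome 13.

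By HiCratio chromosomes differed in the merged share, in an order that Crane did not share. The highest by HiCratio were chromosome 13, with 70 of 146 U domains merged in I (47.9%), the X, with 63 of 140 (45%), and chromosome 10 (41.2%). The lowest were chromosome 1, with 58 of 241 (24.1%), and chromosome 18 (24.5%). In D these chromosomes had 6.85%, 7.14%, 12.7%, 14.9% and 14.2% merged by the same caller. By Crane chromosome 13 had 11.8% merged in I, the X 14.9%, chromosome 1 17.01% and chromosome 18 7.69%, against 12.2% over all domains, so chromosomes 13 and 1 stood in the opposite order. Gene density did not order the chromosomes (Pearson's r = −0.16, Spearman's coefficient = −0.17 over 20 chromosomes, which share the lists). Return by HiCratio differed too, with 43 of 70 on chromosome 13 (61.4%), 20 of 76 on chromosome 2 (26.3%) and 13 of 63 on the X (20.6%). By Crane it was 8 of 16 on chromosome 13 (50%), 6 of 21 on chromosome 2 (28.6%) and 10 of 29 on the X (34.5%). The Crane share over all merged domains was 39.9%, and chromosome 4 had 3 of 20 (15%), so the X was not the lowest there. The cells are XY, so the X is present in 1 copy. Without the X, 32.99% of domains merged in I and 47.9% of those came back.

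Composition followed gene density. Domains merged in I held 5.22 coding start sites per Mb in all, against 8.97 for those kept and 10.2 for those shifted. Their median GC content was 41.2%, against 43.5% for kept domains. Merged domains that came back in ID had 5.85 start sites per Mb and 42.02% GC, while those merged again had 4.64 and 40.2%. Domains merged in D were poorer still, with 3.53 start sites per Mb and 39.3% GC. Merged domains that came back thus lay between those kept in I and those merged again in both measures.

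CTCF occupancy in ID was measured by FLAG ChIP-seq, which detects the transgenic protein alone. By the treatment protocol ChIP was done after 2 days and Hi-C after 4 days. The replicates listed 41360 and 32068 peaks, and 30317 regions had a peak in both and are called sites. Their density was 10.7 per Mb over all U domains, 12.4 in domains kept in I and 7.63 in those merged. It was 9.48 in merged domains that came back and 5.74 in those merged again. Of all sites, 81.7% held a motif match (a 19-base matrix learned from the 10000 strongest sites, at a score that 5.00% of flanking windows reach), at a median of 28 bp from the summit, with 50.1% on the forward strand.

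Boundaries that came back in ID were those most often occupied by transgenic CTCF. Of 3021 boundaries between U domains, 1663 were found in I within 1 bin and 1358 were lost, and 815 of the lost ones were found again in ID (60.01%, interval 57.4 to 62.6). In D, 81.5% of the 1358 were found, and in CTCFL I 12.5%. A CTCF ID site lay within 40 kb of 85.8% of the boundaries that came back (interval 83.2 to 88.1) and of 72.2% of those that did not (68.2 to 75.9). All 40 kb bins of the genome, without those that are mostly unsequenced, gave 45.4%. Boundaries that were kept in I had a site in 77.1% of cases and lost ones in 80.3%, so occupancy separated returned from not returned boundaries more than kept from lost ones. Of the U domains, 51 are mostly unsequenced, and none of these was merged in I. Their boundaries were not left out, and the part of this in the shares of kept and lost boundaries was not tested. Crane put kept boundaries above lost ones (66.6% and 60.6%) but gave the same order for returned and not returned (65.3% and 55.1%).

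Cohesin followed the same order at lost boundaries in every RAD21 list. In D, replicate 1 (22765 peaks) had RAD21 at 78.04% of returned, 61.3% of not returned and 67.8% of kept boundaries, against 40.1% of all bins. Replicate 2 had only 3756 peaks and gave 30.3%, 18.6%, 24.7% and 10.3%. In ID, replicate 1 (8593 peaks) gave 33.5%, 20.3%, 30.7% and 19.7%, and replicate 2 (784 peaks) gave 6.01%, 3.31%, 8.06% and 2.28%. In ID replicate 1, boundaries that did not come back were at the level of all bins. The peak lists give no read depth, and the replicates differ widely in number of peaks, so levels were not compared between D and ID.

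**Figure D4:**
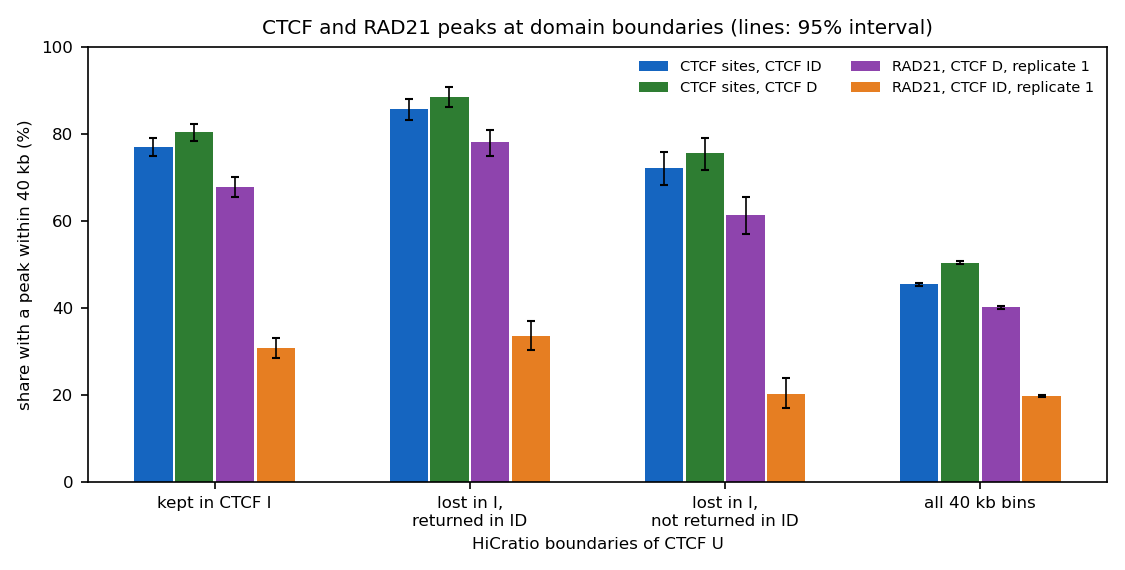
Share of U boundaries (%) with a CTCF site (ID and D) or a RAD21 peak (D and ID, replicate 1) within 40 kb, for boundaries kept in I, lost and returned in ID, lost and not returned, and for all 40 kb bins. Bars are shares and lines 95% intervals for counting error, and for CTCF ID the values are 77.1%, 85.8%, 72.2% and 45.4%.

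The second caller gave a view of the same boundaries that the classes did not use. Of the 815 HiCratio boundaries that came back, 82.9% lay inside a Crane gap in U, 87.4% in D, 47.7% in I and 82.1% in ID. Those that did not come back went from 72.6% in U to 36.6% in I and 58.4% in ID. Kept boundaries stayed at 81.1%, 77.2% and 80.2%. Crane gaps covered 36.9% of these chromosomes in U, 33.5% in I and 37.0% in ID. Both callers were run on the same Hi-C data, so this is not a second experiment.

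Boundaries that came back had sites of both motif directions, and any motif site, more often than those that did not. Sites with a forward and with a reverse motif were both present within 40 kb of 46.01% of returned, 35% of kept and 27.6% of not returned boundaries. No site with a motif lay near 18.04% of returned and 32.6% of not returned ones. A forward motif alone was near 19.1% and 19.3% and a reverse motif alone near 16.8% and 20.4%, so HiCratio shows no preference for a direction. By Crane a forward motif alone was more frequent than a reverse motif alone in each class. The Crane shares were 23.1% and 14.4% of returned, 18.01% and 15.2% of not returned and 21.6% and 14.04% of kept boundaries. For 1755 U domains with a motif at both ends, taking the strongest site at each, the motifs pointed towards each other in 719 (40.97%, interval 38.7 to 43.3), away from each other in 255 (14.5%), and the same way in the rest. Merged domains had 42.96% convergent pairs (244 of 568), kept domains 38.9% (206 of 529), merged domains that came back 42.6% (130 of 305) and those merged again 45.3% (77 of 170). These intervals overlapped. By Crane merged domains had 23.8% convergent pairs (15 of 63) and kept domains 49.1% (111 of 226), so no order between classes held for both callers.

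A panel of 41 developmental, pluripotency and imprinted loci and cohesin genes places the classes at known genes. It was chosen with earlier results of these data known. Of the 37 with a start site in a U domain, 16 were in domains merged in I (43.2%), 7 in kept, 13 in shifted and 1 in a split domain. None was merged in D. Of the 16, 12 were in domains kept in ID and 15 in domains kept in D. Of all 19819 protein-coding start sites in U domains, 23.2% were in domains merged in I. Several panel genes share a domain, so the 16 are not 16 separate merges. By Crane only 21 panel genes start in a U domain, of which 3 were merged in I (14.29%) and all 3 were kept in ID. Crane left the domains of Igf2 and H19 uncovered in I and gave those of Kcnq1, Prdm14, Kcnj2 and Rad21 as shifted, and had all of them kept in ID, so of the loci below only that of Epha4 and Pax3 was merged in I by both callers.

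At the imprinted cluster on chromosome 7, the U domain with Igf2, a growth factor, and H19, the noncoding RNA beside it (chr7:142320001-142720000), and the domain with Kcnq1 and Cdkn1c, a cell cycle inhibitor (chr7:142760001-143480000), became 1 I domain of 1.2 Mb. Their boundary was back in ID and had 5 CTCF ID sites within 40 kb. Epha4, an ephrin receptor, and Pax3, a transcription factor of neural crest and muscle, lay in neighbouring U domains that became 1 of 2.76 Mb, and the boundary, with 4 sites, was back in ID. This pair is a well-known case in limb development, where the loss of the boundary brings Pax3 under Epha4 enhancers. The domain of Sox2, a core pluripotency factor, and its 2 neighbours at higher coordinates became 1 domain of 1.36 Mb (chr3:34680001-36040000) and all 3 were kept in ID, with 1 CTCF ID site at the first boundary and 0 at the second. The Sox2 start site itself lies in the bin just before that I domain, which holds the rest of its U domain (chr3:34640001-35080000). The domains of Prdm14 (1.92 Mb in I), Tbx3 (0.96 Mb), Hoxd1 (0.92 Mb) and Xist (1.52 Mb) came back too.

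At other loci a boundary stayed absent in ID by HiCratio. Sox9, a regulator of cartilage and sex determination, and Kcnj2, a potassium channel gene, lay in U domains that joined with 3 others to 4.76 Mb. The boundary between Sox9 and Kcnj2 was absent in ID with 4 sites near it, while the other 3 boundaries were back. Rad21 itself lay in 1 of 5 U domains that joined to 4.32 Mb, and neither boundary of its domain, which was shifted in ID, was back. Occupied boundaries thus occurred among those that did not return.

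RNA-seq of the same conditions (2 libraries of U and 3 each of I, D and ID, with 16.3 M to 28.9 M recovered reads) gave the level of the genes in these domains, as the authors' normalized counts. By the treatment protocol RNA was taken after 2 days and Hi-C after 4 days. Domain classes and RNA levels set beside each other here are therefore not from the same time. In bulk samples, fewer cells that express a gene and less RNA per cell cannot be told apart. Ctcf mRNA was 4712 and 4691 in U, 4622, 4371 and 4231 in I, then 3845, 3850 and 3550 in D and 3910, 4137 and 4142 in ID. It was not called between U and I (log2 fold change −0.09 ± 0.07 SE), and since the degron acts on the protein, it does not check depletion. It was lower in every D library than in both U libraries, and in every ID library than in every I library, so this row does not show the induction that the labels D and ID name. Whether reads of the transgene are counted in it is not given in the sources used here. The FLAG ChIP lists of D and ID, which detect the transgenic protein, are separate samples. The paper reports that transgenic CTCF and CTCFL were expressed and bound only after Dox. The RNA-seq tracks it shows for this are of the CTCFL line, not of the CTCF line. It also reports depletion and induction at the protein level, by western blot, microscopy and flow cytometry. All 8 embryonic stem cell markers passed the filter, of which 2 (Sox2 and Esrrb) were lower in I, where 5.92% of all tested genes were lower. Their summed level was 175647 to 187198 in U, 124099 to 139933 in I and 128824 to 131679 in ID. Of 8 markers of other lineages 6 passed, of which Cdx2 was higher in I, where 5.00% of all tested genes were higher. Cdx2 was near the floor, at 3.19 and 2.21 in U and 12.6, 20.45 and 17.6 in I. The sum of these lineage markers overlapped between U (1578 to 1737) and I (1392 to 1718). The part of this shift in the results below was not tested.

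Genes in merged domains were called lower in I more often than genes in kept or shifted domains. Of 16705 genes tested, 835 were higher in I than in U (5.00%) and 989 lower (5.92%), where a call needed an adjusted p below 0.01 (limma, Benjamini-Hochberg) and a log2 fold change beyond 1. Between I and ID 845 genes were called (5.06%), of which 294 were higher in ID (1.76%) and 551 lower (3.30%). Among the 3099 tested genes that start in a merged domain, 136 were higher (4.39%) and 319 lower (10.3%, interval 9.25 to 11.4). Among the 4689 in kept domains, 5.22% were higher and 5.01% lower, and among the 6088 in shifted domains 5.04% and 4.91%. The 619 genes of domains merged in D, a class that involves no depletion, had 11.8% lower in I. Genes are not independent replicates, and neighbours share a domain.

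Gene density moved with this difference. The share lower in I was 22.4% in the gene-poorest quartile of domains and 14.7%, 7.45% and 2.17% in the others. Within quartiles, merged domains had 28.3%, 18.0%, 8.06% and 3.06% lower, and kept domains 16.6%, 12.9%, 6.87% and 2.29%. Domains merged in D had 19.5%, 18.9%, 9.80% and 2.74%. In the poorest quartile the intervals of merged (23.4 to 33.5) and kept domains (11.2 to 23.2) did not overlap, while they did in the other 3 quartiles, and shifted domains of the poorest quartile (19.4%, 13.9 to 25.8) overlapped both. By Crane the poorest quartile holds 4 tested genes in merged domains, and in the next one merged domains had 27.03% lower and kept domains 23.5%, with overlapping intervals. Genes of merged domains that came back were lower in 9.84% of cases and those of merged domains that did not in 10.8%, so the share did not differ beyond counting error with return.

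Start sites near boundaries were examined separately. Within 40 kb of a lost boundary, 6.36% of 1085 tested genes were higher in I (interval 4.98 to 7.98) and 4.79% lower, and near a kept boundary 4.55% of 1933 were higher (3.67 to 5.58) and 3.98% lower. The intervals overlap. Near boundaries that came back 5.64% were higher, and near those that did not 7.46%.

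Single loci moved in both directions. Igf2 was at 2438 and 2591 normalized counts in U, 5635, 5019 and 5265 in I, 1809, 1902 and 1882 in D and 2064, 2181 and 2273 in ID. It rose in I by 1.08 ± 0.07 on the log2 scale (adjusted p = 1.09e-07) and was lower in ID than in I by a log2 fold change of −1.29 ± 0.07 (adjusted p = 5.00e-08), with no overlap between I and any other condition. Cdkn1c, in the neighbouring domain, was at 1149 and 959 in U, 2436, 3164 and 3298 in I, and 1820, 1980 and 1914 in ID. It rose in I by 1.49 ± 0.12 (adjusted p = 5.27e-07), and ID, at −0.63 ± 0.11 against I, fell short of the fold required for a call. H19 and Kcnq1 were not called. The same I libraries serve in both comparisons.

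Sox2, at 16759 and 15269 in U, was at 7152, 7894 and 7990 in I, at 14323, 11861 and 10652 in D and at 6727, 7116 and 7364 in ID (log2 fold change of I against U −1.06 ± 0.11, adjusted p = 4.14e-06, and of ID against I −0.12 ± 0.10, not called). Its domain was back in ID (Hi-C, 4 days by the protocol), while its mRNA (2 days) did not differ detectably from I. Epha4 went from 7552 and 8350 in U to 3192, 2592 and 2739 in I and to 1548, 1547.5 and 1379 in ID, with 5195, 5385 and 4855 in D, although its domain was kept in ID as well. Pax3, in the neighbouring domain, was below the filter and not tested. It was at 3.19 and 0 in U, 2.90, 2.27 and 4.19 in I and 4.82, 4.69 and 13.6 in ID. Prdm14 fell in I (log2 fold change −1.25). Hoxd1 rose at an adjusted p of 0.00952 by limma with 18 to 53 normalized counts in I, but that call held in only 2 of 17 alternatives. In all, 14 of the 16 panel genes in merged domains were tested, of which 4 rose and 4 fell in I, where 5.00% of all tested genes rose and 5.92% fell. In kept domains, 7 were tested, of which 1 rose and 2 fell. The panel was chosen with earlier results known, so these counts are a description.

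**Figure D5:**
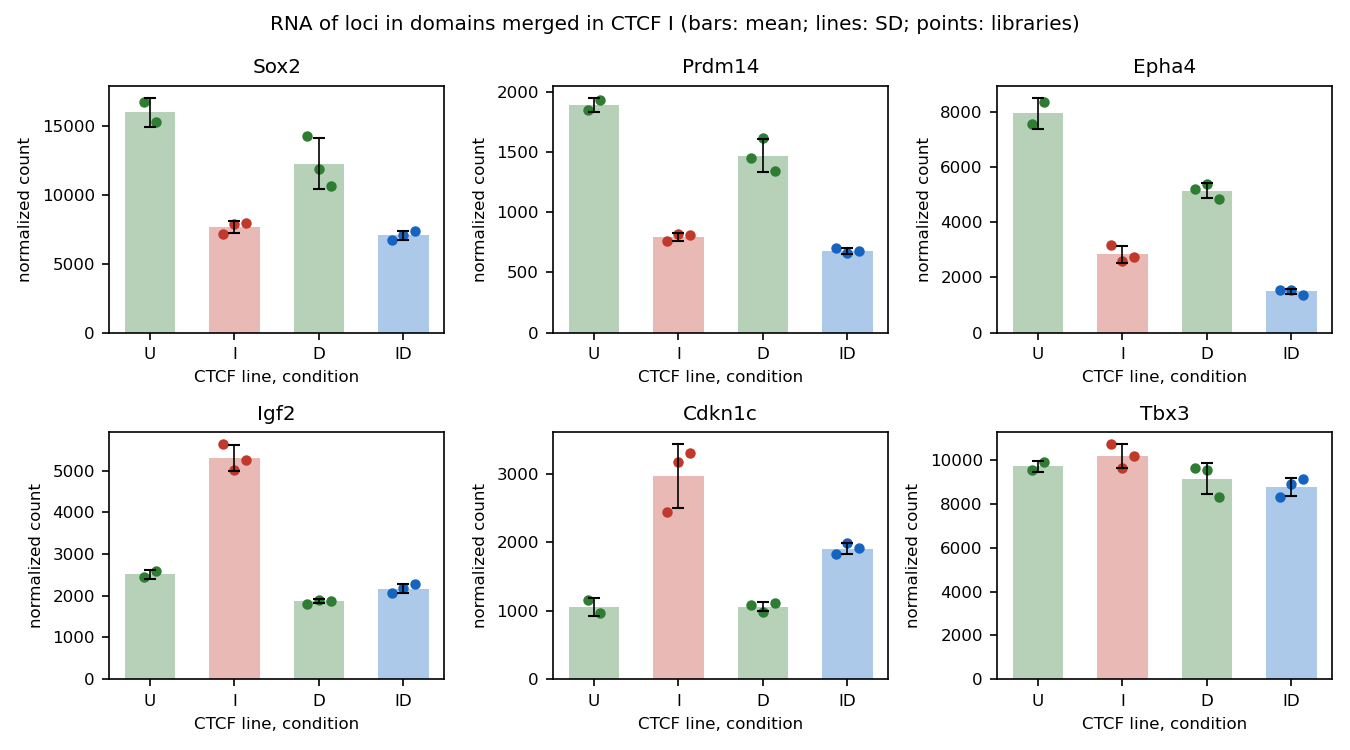
Normalized count of panel genes that start in domains merged in I, by condition of the CTCF line (bars are means, lines SD and points libraries, 2 for U and 3 for the others). Igf2 is at 5019 to 5635 in I and at most 2591 elsewhere, while Sox2 stays between 6727 and 7990 in I and ID.

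The 455 called genes of merged domains included some that were nearly lost in I. Prss41, a serine protease gene in a merged domain of 1.24 Mb on chromosome 17, was at 111 and 118 in U, 2.90, 3.41 and 0 in I, and 32.55, 23.5 and 19.7 in ID (log2 fold change −5.48 ± 0.51 in I against U, adjusted p = 1.74e-06, and 3.32 ± 0.45 in ID against I, adjusted p = 8.21e-05). Its U domain was merged again in ID. Dppa1, a gene of pluripotent cells on chromosome 11, went the other way, from 5.32 and 7.73 in U to 96.8, 107 and 120 in I and 7.23, 5.87 and 12.1 in ID (3.87 ± 0.41 and −3.58 ± 0.37), and its domain was merged again in ID too. These were the genes with returning mRNA among the 10 largest changes, and neither had a returning domain.

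The other 8 of these 10 were lower in I: Scn3a (a sodium channel, log2 fold change −4.84), Nalcn (a sodium leak channel, −4.39), Syt1 (a synaptic vesicle protein, −4.15), Gpc6 (a glypican, −4.07), Thsd4 (−3.99), Ctnna2 (a catenin of neurons, −3.93), Bnc2 (a zinc-finger protein, −3.86) and Ryr2 (a calcium release channel, −3.76). They lay in I domains of 0.96 to 7.64 Mb. The domains of Bnc2 and Ryr2 were kept in ID, where Bnc2 stood at 3.62 to 6.05 and Ryr2 at 3.62 to 21.2, against 112 to 136 and 301 to 360 in U. None of the 8 was called between I and ID.

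RNA levels were also read for genes in the merges whose sequences are printed above. Of the 3 most abundant genes of each, 15 in all, 4 were called between U and I. Over all 16705 tested genes 10.9% were called either way. Mcf2, a nucleotide exchange factor on the X chromosome, fell in I (−1.39 ± 0.12), and Mctp2 (−1.27 ± 0.18) fell on chromosome 7 while Rgma, a guidance molecule in the same merge, rose (1.18 ± 0.14). Mcf2 was at 1894 and 2028 in U, 807, 786 and 655 in I and 497, 447 and 442 in ID, so it stayed low where its domain was back. Rgma was at 160 and 191 in U, 398, 369 and 429 in I and 197, 219 and 224 in ID (−0.90 ± 0.12 against I, short of the fold required). On chromosomes 13, 10 and 4, none of the 9 genes was called between U and I.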

How the data were processed

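Hi-C, ChIP-seq and RNA-seq of the CTCF line were used as deposited. Per the labels, reads were mapped to GRCm38/mm10, with Bowtie2, HTSeq, SAMtools 1.3 and Trim Galore 0.4.4 among the tools of the submitters' processing notes. For Hi-C the authors used HiC-Bench with ICE correction in 40 kb bins and called domains with HiCratio and Crane. The deposited domain lists give coordinates only. For each condition the Crane list stands under 1 replicate's record and the HiCratio list under the other's, so they are callers, not replicates, and whether the reads were pooled is not given in the sources used here. The deposited peak lists give −log10 q and a fold ratio over background as the authors' peak caller wrote them, and peaks were used by position and −log10 q. The deposited RNA-seq signal is the count per gene divided by the authors' size factors. Whole reads were recovered for at least 99.9958% of values in each library, within 0.0055 of a whole number. Of that table, 27 columns of other lines were not used.

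Members, gene lists and classes were chosen with earlier results of these data known. The named merges, the panel, the 10 largest called changes in merged domains and the 3 most abundant genes per named merge were set by rule. A boundary is the gap between neighbouring domains, counted once, in place of the separate domain ends first planned. Domains were joined to GENCODE vM21 (21755 protein-coding genes, and 16248 of 16705 tested genes matched by a unique symbol) and to peaks in Python 3.11.15 with numpy 2.4.6 and scipy 1.17.1. RNA was tested with limma 3.58.1 in R 4.3.3 on log2(value + 1) over 11 libraries, for genes with a mean of at least 10, so fold changes of low genes are understated. Nothing states that replicates were separate cultures, so p-values measure the spread between libraries, which may be technical. edgeR 4.0.16 and DESeq2 1.42.0 on recovered reads were alternatives, and Benjamini-Hochberg adjustment ran over all genes. The scripts were tested on simulated data. Some genes of the panel and of the named merges are not reported here.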

Additional observations from a re-analysis of the deposited data

Results flagged for a closer look

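One value stood apart from its group. Among the 6 HiCratio lists with endogenous CTCF, the median domain of CTCF D measured 560 kb and that of each other list 600 kb, so the gap to the nearest list equals the whole range. Of 16 groups examined this was the only 1, and chance gives about 1 in 20. Medians move in steps set by the 40 kb bins.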

How the results depend on the processing

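The merged share in I (33.5%) was 12.2% with Crane lists, 40.97% with 50% inside and 25.3% with 95% inside. The share that came back (46.2%) was 39.9% with Crane, 26.8% with no tolerance, 50.0% with 2 bins, 51.99% from CTCF D as the starting list and, in choices made after seeing the data, 50.0% with CTCFL I in place of CTCF I and 58.2% for domains kept in D. In the CTCF and CTCFL lines only, the difference in number was 475.2 and in median size −50.0 kb (both exact permutation p = 0.0571, the smallest that 4 against 3 lists allow). The site share at lost boundaries (80.3%) was 60.6% with Crane, 62.4% at 20 kb, 90.9% at 80 kb, 84.5% with ChIP replicate 1 alone and 83.4% with D sites. Convergent pairs at merged domains (42.96%) were 23.8% with Crane, 37.3% by the best match and 28% at 80 kb. The poorest and densest quartiles had 18.7% and 8.40% merged with Crane. Without 1 library each, 1475 to 1918 genes were called for U and I (1824) and 711 to 841 for I and ID (845). Replicate numbers did not pair the libraries, and with a replicate block 1700 and 791 were called. For Hi-C no pairing by replicate was made, since each condition has 1 list per caller, and pairs within a line are given as values. Of 2074 values of named genes under alternatives, 2032 kept direction and side of the threshold, 14 passed it only there, 28 lost it and 0 reversed. The causes were not tested. Bins of 40 kb limit positions, and the domain and peak lists hold no read depth.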
